A study of Homo sapiens with 6 samples.

Results

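Megakaryocytes are the bone marrow cells that shed platelets, and a set of genes is known for its use in that lineage. It comprises 39 genes here, chosen by name: receptors by which platelets sense von Willebrand factor, collagen, thrombin, ADP and thromboxane, proteins of their granules, and parts of their signalling and cytoskeleton. The choice was made with earlier results of these data known. Of the 39, 38 had a probe set annotated to that gene alone and were measured, out of 18377 genes in the table. GP1BB lay only on probe sets annotated to several genes and was not analysed here. The cells were TF-1, an erythroleukaemia line labelled as acute myeloid leukaemia that needs a cytokine to grow. They carried either human PRL-3, the tyrosine phosphatase encoded by PTP4A3 (3 arrays, numbered 4 to 6), or a control vector labelled pEGFP (3 arrays, numbered 1 to 3). The medium of both groups was RPMI with 10% serum (fetal bovine) and human IL-3 at 5 ng/ml, and the purpose given for the series was the part PRL-3 plays in the genesis of leukaemia. The labels do not say whether a line was 1 clone or a pool, how PRL-3 was driven, or whether the arrays of 1 group stand for separate cultures. The p-values therefore rest on a spread among arrays that could be technical.

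Erythroid cells and megakaryocytes descend from a shared progenitor. In platelets, von Willebrand factor on a damaged vessel wall is caught by the glycoprotein Ib-IX-V complex. Collagen, thrombin, ADP and thromboxane then act through receptors that open the integrin for fibrinogen and release the granules. Transcription factors of the GATA, ETS and RUNX families are known to drive many of these genes.

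The level of a gene is the deposited intensity of its probe set, on a linear scale in arbitrary units. Array medians over all probe sets ran from 89.8 to 92.9. PTP4A3 read 1794, 1954 and 1775 in PRL-3 arrays, against 242, 261 and 249.98 in control arrays, a difference of 2.87 ± 0.0717 (log2, PRL-3 minus control, SE) with adjusted p = 2.24e-06 in limma, in the direction of the labels. Within groups the arrays were spread on the second principal component, where PRL-3 5 (score 17.7) and control 1 (11.9) had the highest scores and control 3 (-18.9) the lowest. The table held no detection call, so whether a gene with a low intensity was expressed is unknown. The mean levels of PF4, PF4V1, VWF, P2RY12, GUCY1B1 and CLEC1B lay below 5.93 (log2), the 25th percentile over all genes. Those of F13A1 (5.96), ANGPT1 (5.98) and PLEK (6.18) lay above it but below 6.80, the median over all genes. In bulk RNA, fewer cells of a type cannot be told apart from less RNA per cell.

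The megakaryocyte and platelet genes did not move one way between PRL-3 and control cells. Of the 38 measured, 6 rose, 2 fell and 30 did not pass adjusted p 0.05 in limma. Those that rose were LAT, F13A1, PLEK, F2RL2, RGS10 and ANGPT1, by 1.31- to 1.66-fold, and those that fell were GP1BA (1.44-fold lower) and TPM4 (1.3-fold lower). Among all 18377 genes, 4.58% were called higher and 3.11% lower, against 15.8% and 5.26% of the measured members. An unadjusted p under 0.05 in limma was found for 20 of the 38 members and for 3704 of all 18377 genes. The PRL-3 and control arrays did not overlap in 9 members with PRL-3 higher and in 9 with PRL-3 lower, 23.7% each, where the shares among all genes were 12.1% and 12.2%. As many members had a positive difference (19) as a negative one (19), and their median was 0.003 (log2), against -0.015 over all genes. The median size of the difference without its sign was 0.248 in the members and 0.094 in all genes. Because the members were chosen with earlier results of these data known, these comparisons with all genes are descriptions and were not tested.

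**Figure D1:**
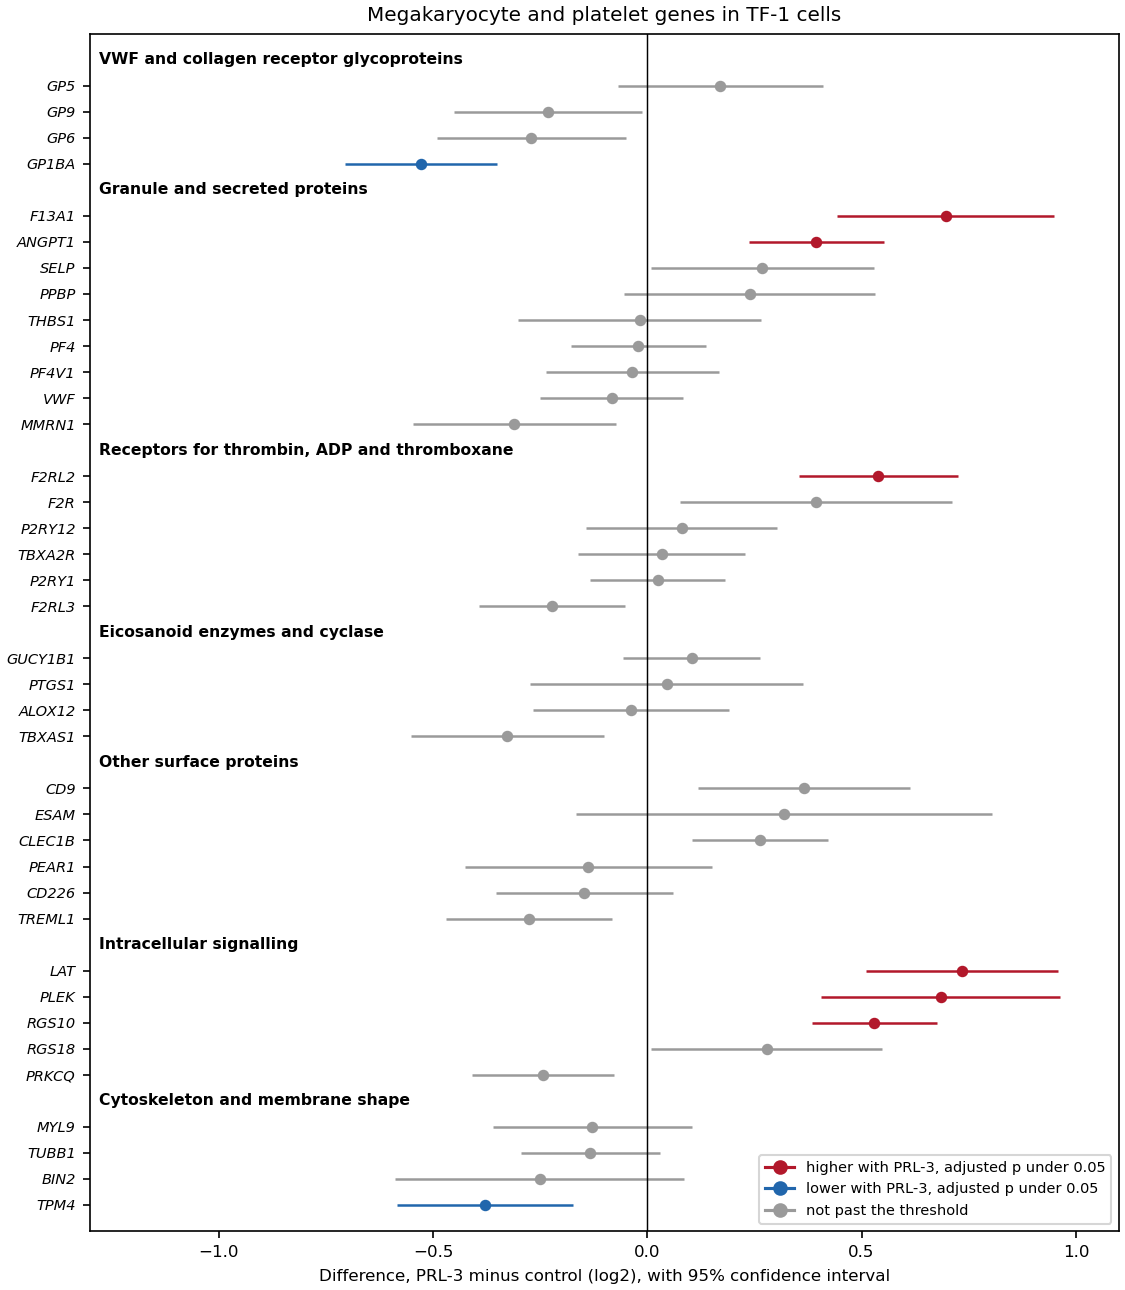
Difference in log2 intensity, PRL-3 minus control, of the 38 measured genes, grouped by role; points are limma estimates from 3 arrays a group and bars are 95% confidence intervals. The 6 genes called higher (red) include 3 of the 5 intracellular signalling genes, GP1BA and TPM4 are called lower (blue), and PF4, PF4V1, THBS1 and VWF lie close to 0.

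Promoter sequences are shown for 5 members, because the DNA just upstream of the start is a feature that the choice of members did not use. RefSeq (GRCh38.p14) gave such windows for 31 of the 39 genes, and none were held for GP1BA, F2R, PF4, VWF, BIN2, ESAM, MYL9 and ANGPT1. F13A1, F2RL2, RGS10 and PLEK are members that rose; LAT, the other riser with a window, is not printed and held TGANTCA but no GATAA. PPBP, a classical platelet gene that did not pass, stands beside them. Of the 5, only RGS10 had more than 1 window, and the window printed for it was picked because it held GATAA. Each is the 250 bases before the start, 5′ to 3′ on the strand of the gene, with GATAA (the core that GATA factors bind), TGTGGT (RUNX) and TGANTCA (AP-1 and NF-E2) in capitals wherever they occur on either strand.
F13A1 (chr6:6320663-6320912, minus strand): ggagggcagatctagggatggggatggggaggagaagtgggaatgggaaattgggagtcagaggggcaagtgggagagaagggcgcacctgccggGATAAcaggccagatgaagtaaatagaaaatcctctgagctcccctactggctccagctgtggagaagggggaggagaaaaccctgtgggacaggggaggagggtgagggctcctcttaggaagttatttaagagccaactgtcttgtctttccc
F2RL2 (chr5:76623404-76623653, minus strand): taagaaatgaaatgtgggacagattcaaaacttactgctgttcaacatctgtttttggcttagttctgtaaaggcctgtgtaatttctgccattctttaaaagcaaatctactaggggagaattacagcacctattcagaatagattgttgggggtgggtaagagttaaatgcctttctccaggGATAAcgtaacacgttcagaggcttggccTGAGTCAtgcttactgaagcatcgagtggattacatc
RGS10 (chr10:119542720-119542969, minus strand, one of 2 windows listed): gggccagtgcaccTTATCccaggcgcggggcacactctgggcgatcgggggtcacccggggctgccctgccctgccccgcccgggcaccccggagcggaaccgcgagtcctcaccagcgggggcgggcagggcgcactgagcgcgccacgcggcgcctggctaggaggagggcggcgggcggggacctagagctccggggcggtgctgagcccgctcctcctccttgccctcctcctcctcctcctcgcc
PLEK (chr2:68365032-68365281, plus strand): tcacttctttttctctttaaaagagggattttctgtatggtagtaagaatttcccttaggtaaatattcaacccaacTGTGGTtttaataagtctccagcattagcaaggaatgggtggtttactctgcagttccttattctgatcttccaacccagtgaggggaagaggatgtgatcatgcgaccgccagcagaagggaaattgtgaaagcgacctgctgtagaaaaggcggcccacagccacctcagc
PPBP (chr4:73988191-73988440, minus strand): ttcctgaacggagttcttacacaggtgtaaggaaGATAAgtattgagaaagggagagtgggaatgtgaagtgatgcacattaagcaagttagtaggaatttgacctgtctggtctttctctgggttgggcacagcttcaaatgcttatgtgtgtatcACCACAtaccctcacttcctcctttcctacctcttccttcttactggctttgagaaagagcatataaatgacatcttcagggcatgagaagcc

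GATAA stood on either strand in a window of 18 of the 31 members (58.1%), against 24.2% of the 27305 genes with a window. AGGAAG, a form of the ETS core, stood in 20 (64.5%), against 32.9%. CCGGAAG, another form of the ETS core, stood in 1 (3.23%), against 10.2%. TGTGGT stood in 8 (25.8%, against 13.2%), TGANTCA in 4 (12.9%, against 8.06%) and the TATA box TATAAA in 7 (22.6%, against 13.05%). These 6 motifs were chosen after matches had been seen, AGGAAG and GATAA can share letters, and genes with more than 1 window had more sequence to match. By the outcome of the test, GATAA stood in 3 of 6 called members with a window (F13A1, F2RL2 and RGS10) and in 15 of the other 25. Those 25 include GP1BB, which held GATAA but was not tested. A match is a description of letters, not of a bound site.

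In the receptor for von Willebrand factor, GP1BA fell. It encodes the chain of the glycoprotein Ib-IX-V complex that binds von Willebrand factor. GP1BA read 245, 214 and 213 in PRL-3 arrays, against 320.5, 328 and 319.7 in control arrays. All PRL-3 arrays lay below all control arrays, and the difference was -0.53 ± 0.077 (log2, SE, adjusted p = 0.00591, limma). GP9, a small subunit of the same complex, read 90.8, 79.3 and 79.9 in PRL-3 arrays, against 87.2, 102 and 105 in control arrays. Its groups overlapped at control 1, and the difference of -0.23 ± 0.0952 did not pass (adjusted p = 0.218, limma). GP5, the subunit that thrombin cleaves, read 108, 119.5 and 106 in PRL-3 arrays, against 100.5, 111 and 86 in control arrays, and here the groups overlapped as well (0.17 ± 0.104, adjusted p = 0.436, limma). GP6, the collagen receptor that signals through the Fc receptor gamma chain, read 178, 186 and 160.3 in PRL-3 arrays, against 231, 214 and 189 in control arrays. The groups of GP6 did not overlap, but the difference of -0.27 ± 0.0961 did not pass (adjusted p = 0.152, limma). The 3 measured subunits of the complex thus gave differences of -0.53, -0.23 and 0.17, of which the first passed.

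Among granule and secreted proteins 2 of 9 rose and 0 fell, against 4.58% and 3.11% of all genes. Of the 9, 4 had an unadjusted p under 0.05 in limma, and 0 passed the unequal-variance test. F13A1, the A subunit of coagulation factor XIII, which cross-links fibrin, read 72.1, 91.2 and 75.2 in PRL-3 arrays, against 50.4, 43.9 and 52.6 in control arrays. Every PRL-3 array exceeded every control array, and the difference was 0.70 ± 0.11 (1.62-fold, adjusted p = 0.00809, limma). ANGPT1, the ligand of the endothelial receptor TIE2 and a cargo of platelets, read 68.5, 75.7 and 72.4 in PRL-3 arrays, against 55.9, 55 and 53.8 in control arrays. The arrays of each group lay close together and apart from the other group (0.39 ± 0.0683, 1.31-fold, adjusted p = 0.012, limma). Both F13A1 and ANGPT1 were dim. Their control means of 5.61 and 5.78 (log2) lay below 5.93, the 25th percentile of level over all genes. Whether they were expressed in control cells is unknown.

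The chemokines that fill alpha granules showed no difference that passed. PF4, platelet factor 4, read 43.3, 42.7 and 43.7 in PRL-3 arrays, against 43.2, 42 and 46.6 in control arrays. PF4V1, its near-identical copy, read 51.8, 61.1 and 50.8 in PRL-3 arrays, against 57.3, 53.4 and 56.6 in control arrays, and each probe set may read part of the other gene. For both the groups overlapped, and the differences of -0.02 ± 0.0687 (95% interval -0.18 to 0.14) and -0.04 ± 0.0877 (95% interval -0.24 to 0.17) were close to 0. PPBP, the precursor of other platelet chemokines, read 73.6, 88.6 and 65.2 in PRL-3 arrays, against 65.7, 56.2 and 70.2 in control arrays, with adjusted p = 0.363 in limma. Its highest array was PRL-3 5 and its lowest control 2, and the interval ran from -0.05 to 0.53. VWF, von Willebrand factor itself (-0.08 ± 0.0724, 95% interval -0.25 to 0.08), and THBS1, thrombospondin (-0.02 ± 0.124, 95% interval -0.30 to 0.27), also overlapped between groups. PF4, PF4V1 and VWF lay below the 25th percentile of level over all genes, so whether they were expressed is unknown.

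SELP, P-selectin, which granules bring to the platelet surface, read 102, 135 and 105 in PRL-3 arrays, against 94, 98.5 and 89.6 in control arrays. The groups lay apart, with PRL-3 5 far above the rest, and the difference of 0.27 ± 0.113 did not pass (adjusted p = 0.232, limma). MMRN1, multimerin, a carrier of factor V in alpha granules, read 145, 113 and 129.6 in PRL-3 arrays, against 168, 164 and 147 in control arrays. Here all PRL-3 arrays were below all control arrays, the nearest being PRL-3 4 and control 3, and -0.31 ± 0.103 did not pass (adjusted p = 0.127, limma).

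The protease-activated receptors, which thrombin switches on by cutting off their own front end, gave differences of both signs. F2RL2, described in mouse platelets as a co-receptor for thrombin, read 147, 134 and 136 in PRL-3 arrays, against 88.9, 103 and 94.9 in control arrays. Its groups were separate, and F2RL2 rose by 0.54 ± 0.0804 (log2, SE, 1.45-fold, adjusted p = 0.00662, limma). F2R, the main thrombin receptor of human platelets, read 491, 491 and 389 in PRL-3 arrays, against 398, 360.2 and 289 in control arrays. PRL-3 6 fell below control 1, so the groups overlapped, and 0.39 ± 0.138 did not pass (adjusted p = 0.146, limma). F2RL3, the second thrombin receptor of human platelets, read 88.8, 92 and 85.7 in PRL-3 arrays, against 110.2, 104 and 97 in control arrays. The groups of F2RL3 did not overlap and PRL-3 was lower, at -0.22 ± 0.0742 (adjusted p = 0.127, limma), which did not pass.

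For ADP and thromboxane the receptors gave differences near 0. P2RY1, which starts the shape change to ADP, differed by 0.02 ± 0.0685 (95% interval -0.13 to 0.18). P2RY12, the ADP receptor that antiplatelet drugs block, differed by 0.08 ± 0.0967 (95% interval -0.14 to 0.30). TBXA2R, the thromboxane receptor, differed by 0.03 ± 0.0849 (95% interval -0.16 to 0.23). In all of these the groups overlapped. P2RY12 lay below the 25th percentile of level over all genes, so whether it was expressed is unknown.

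Of the enzymes of eicosanoid and cyclic GMP signalling, 0 of 4 passed in limma. Just 1 of the 4 had an unadjusted p under 0.05, against 3704 of all 18377 genes. That one was TBXAS1, thromboxane synthase, which read 134, 143 and 123 in PRL-3 arrays, against 181, 173 and 147 in control arrays. The groups did not overlap, and -0.33 ± 0.0983 gave adjusted p = 0.0941 in limma. PTGS1, cyclooxygenase-1, the target of aspirin, read 252, 338 and 255 in PRL-3 arrays, against 310.2, 268 and 238 in control arrays. Its highest array of each group was PRL-3 5 and control 1, the groups overlapped, and the difference was 0.05 ± 0.138 (95% interval -0.27 to 0.36). ALOX12, the platelet lipoxygenase (-0.04 ± 0.0994, 95% interval -0.27 to 0.19), and GUCY1B1, the beta subunit of the nitric oxide receptor guanylate cyclase (0.10 ± 0.0697, 95% interval -0.06 to 0.26), overlapped too.

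Among the other surface proteins 0 of 6 passed in limma, while 3 had an unadjusted p under 0.05, against 3704 of all 18377 genes. CD9, a tetraspanin, read 81.2, 94.4 and 86 in PRL-3 arrays, against 78.7, 63.2 and 62 in control arrays. All PRL-3 arrays exceeded all control arrays (0.37 ± 0.108, adjusted p = 0.089, limma). CLEC1B, the platelet receptor for podoplanin, read 42.1, 44.5 and 42.9 in PRL-3 arrays, against 34.1, 37 and 37 in control arrays. Its groups were also separate, at low intensities (0.26 ± 0.0687, adjusted p = 0.0588, limma). It passed after quantile normalization (adjusted p = 0.0455), with an intensity trend and robust variances (adjusted p = 0.032) and with array weights (adjusted p = 0.0154). TREML1, a receptor stored in alpha granules, read 92.4, 76.8 and 85.5 in PRL-3 arrays, against 103, 98.6 and 105 in control arrays. Here PRL-3 was the lower group with no overlap (-0.28 ± 0.0839, adjusted p = 0.0969, limma).

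CD226, an adhesion receptor shared with lymphocytes, read 1144, 972 and 953 in PRL-3 arrays, against 1108, 1199 and 1083 in control arrays. The groups overlapped and the difference was -0.15 ± 0.09 (adjusted p = 0.44, limma). ESAM, an adhesion molecule of platelets and endothelium, had the widest spread within groups of all measured members. It read 251, 335 and 239 in PRL-3 arrays, against 297, 211 and 165 in control arrays, with control 1 above PRL-3 4 and PRL-3 6, and 0.32 ± 0.211 did not pass (adjusted p = 0.487, limma). PEAR1, a receptor engaged when platelets touch each other, differed by -0.14 ± 0.125 (95% interval -0.43 to 0.15).

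Intracellular signalling genes rose in 3 of 5 and fell in 0, against 4.58% and 3.11% of all genes. LAT, the adaptor that links the collagen receptor, and in lymphocytes the T cell receptor, to phospholipase C gamma, read 275, 331 and 282 in PRL-3 arrays, against 195, 173 and 166 in control arrays. Each PRL-3 array exceeded each control array, and the difference of 0.73 ± 0.0973 (log2, SE, 1.66-fold, adjusted p = 0.00388, limma) was the largest among the members. PLEK, pleckstrin, the main substrate of protein kinase C in platelets, read 101, 81 and 95.1 in PRL-3 arrays, against 65.2, 58.2 and 49.4 in control arrays. The groups were separate although both spread widely (0.68 ± 0.122, 1.61-fold, adjusted p = 0.0135, limma). The mean level of PLEK was 6.18 (log2), below the median of 6.80 over all genes. RGS10, which shortens signals from G protein-coupled receptors, read 538, 567 and 558 in PRL-3 arrays, against 375, 392 and 384 in control arrays. Its arrays agreed closely within each group, and it gave the smallest adjusted p among the members (0.53 ± 0.0638, 1.44-fold, adjusted p = 0.0028, limma).

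RGS18, the other regulator of that family in platelets, read 255, 201 and 240.03 in PRL-3 arrays, against 168, 193 and 212 in control arrays. PRL-3 5 lay below control 3, and 0.28 ± 0.117 did not pass (adjusted p = 0.229, limma). PRKCQ, protein kinase C theta, read 845, 889 and 857 in PRL-3 arrays, against 1018, 1089.5 and 962 in control arrays. The groups did not overlap and PRL-3 was lower, at -0.24 ± 0.0723 (adjusted p = 0.0907, limma), which did not pass.

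All 4 genes of cytoskeleton and membrane shape had negative differences, and 1 fell, where 3.11% of all genes were called lower. TPM4, a tropomyosin that helps megakaryocytes release platelets, read 554, 649 and 593 in PRL-3 arrays, against 850.02, 732 and 753 in control arrays. Every PRL-3 array was below every control array (-0.38 ± 0.0894, 1.3-fold lower, adjusted p = 0.0405, limma). TUBB1, the beta tubulin of the platelet marginal band, read 75.8, 71.1 and 71.5 in PRL-3 arrays, against 79.4, 84.1 and 76.1 in control arrays. Its groups lay apart by a small margin, and -0.13 ± 0.0705 did not pass (adjusted p = 0.36, limma). MYL9, a myosin light chain, differed by -0.13 ± 0.101 (95% interval -0.36 to 0.10). BIN2, a membrane-bending protein, read 252, 281 and 247 in PRL-3 arrays, against 361, 338 and 241 in control arrays, where control 3 lay below every PRL-3 array and the difference was -0.25 ± 0.146 (adjusted p = 0.409, limma).

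**Figure D2:**
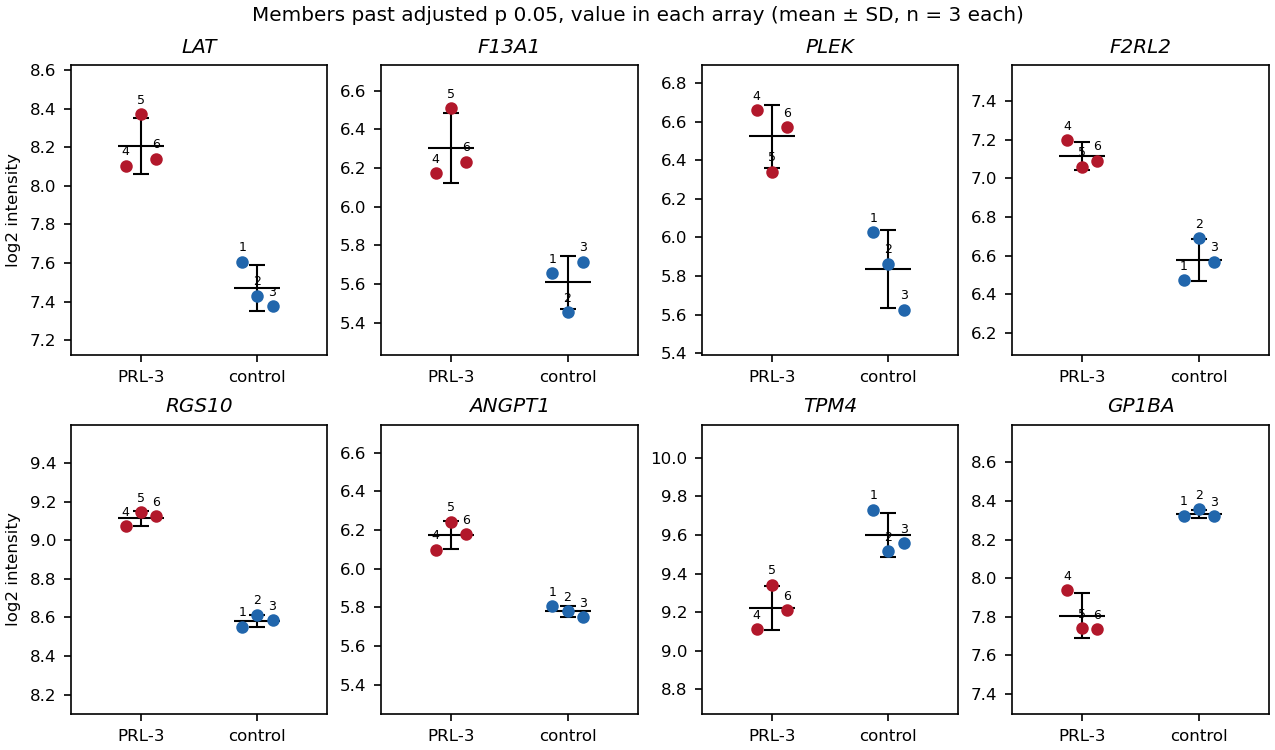
Log2 intensity of the 8 genes past adjusted p 0.05 in each PRL-3 array (4 to 6, red) and each control array (1 to 3, blue), with mean and SD over 3 arrays; every panel spans the same log2 range. The groups do not overlap in any of the 8 panels, and PLEK has a wide spread in both groups whereas RGS10 has a narrow one.

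The calls were not equally firm. GP1BA, F13A1, F2RL2, RGS10 and LAT passed with each single array left out, with adjusted p in limma of at most 0.0454. F13A1 did so at a low mean level (5.96, log2, where the median over all genes was 6.80). ANGPT1 lost its call without control 2 and without PRL-3 6 (adjusted p up to 0.0638), and PLEK without control 2, PRL-3 4 or PRL-3 6 (up to 0.067). Of the fits with 1 array left out, TPM4 passed only in that without PRL-3 5 (adjusted p in limma up to 0.158 in the others), and it also lost its call after a shift of the arrays to 1 median and with an intensity trend and robust variances. An exact two-sided permutation test gave each of the 8 p = 0.1, the smallest that 3 arrays against 3 allow, and an unequal-variance test of each gene called 0 members after adjustment, with 12 at an unadjusted p under 0.05.

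Control 1 and PRL-3 5 were each the highest array of their group in 14 of the 38 members (36.8%), among them GP6, F2R, PTGS1, ESAM, PEAR1, TPM4 and LAT, against 23.7% of all genes. They were each the lowest in 4 members, GP9, F2RL2, P2RY12 and RGS18 (10.5%, against 20.9%). The part of this spread in the results was not tested. Without both arrays 7 members were higher and 2 lower in limma, and CD9 was the added one (0.42, adjusted p = 0.0316); this fit was chosen after seeing the data. CD9 passed without control 1 as well (0.48, adjusted p = 0.0281), and without control 3 TBXAS1 (-0.41, adjusted p = 0.029) and BIN2 (-0.43, adjusted p = 0.0249) passed.

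**Figure D3:**
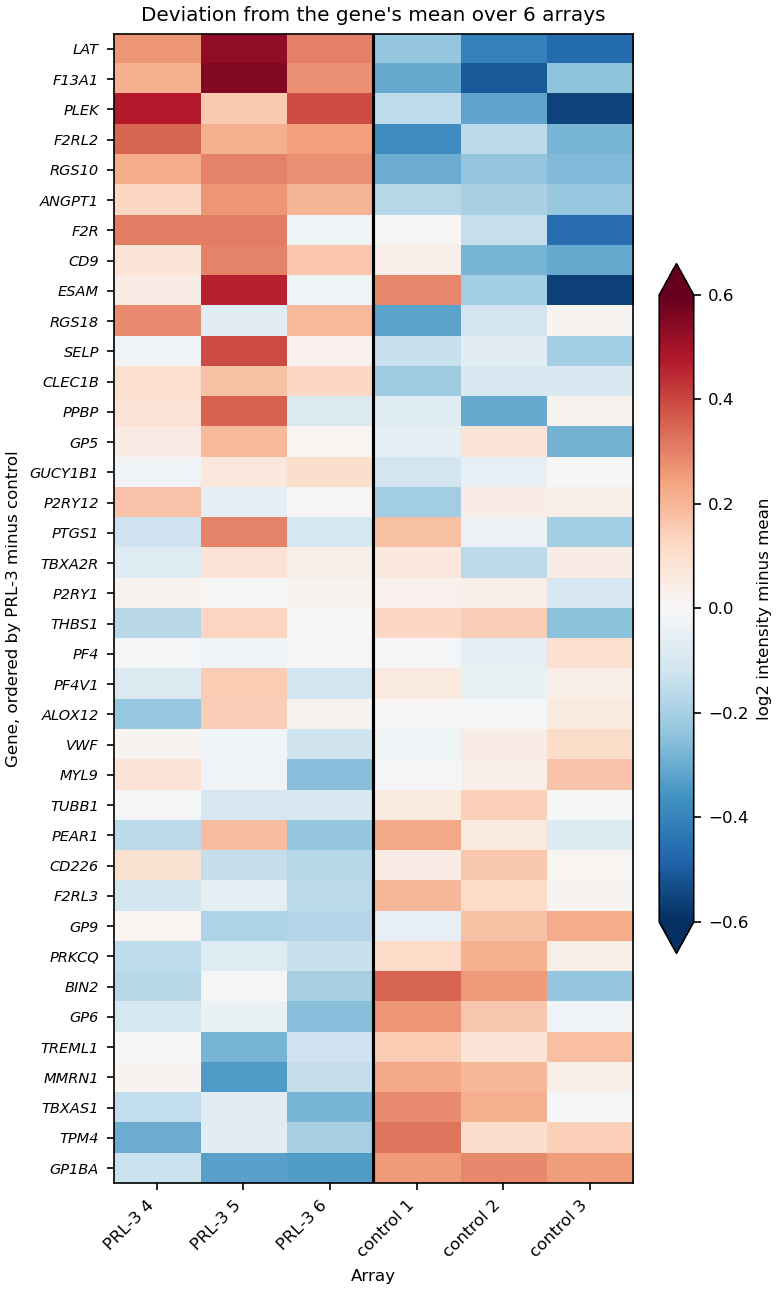
Deviation of each array from the mean over 6 arrays (log2 intensity, colour) for the 38 measured genes, ordered by PRL-3 minus control, with PRL-3 arrays left of the line and control arrays right of it. The rows at the top and bottom separate the groups, while ESAM and PTGS1 are high in both PRL-3 5 and control 1.

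Genes that work with the members in the same lineage were read from 6 further lists that share no gene with them. For transcription factors of megakaryocytes, 1 of 13 measured rose and 1 fell, with ETV6 not measured on a probe set of its own. Among all genes 4.58% were called higher and 3.11% lower. The lists were not tested against these shares, and in lists this small 1 call is not a result about the list. MEIS1, a homeobox factor, rose by 0.62 ± 0.0826 (adjusted p = 0.00409, limma). ERG, an ETS factor, differed by -0.92 ± 0.0873 (adjusted p = 0.000983, limma) and was lower with PRL-3. GATA1 (-0.08 ± 0.188, 95% interval -0.51 to 0.35), FLI1 (-0.03 ± 0.102, 95% interval -0.26 to 0.21) and RUNX1 (-0.08 ± 0.132, 95% interval -0.38 to 0.23) overlapped between groups. NFE2, required for platelet shedding, read 265, 288 and 271 in PRL-3 arrays, against 378, 386 and 306 in control arrays, with no overlap and -0.37 ± 0.0993 (adjusted p = 0.0655, limma), which did not pass. With array weights the list gave 2 higher and 4 lower.

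Integrins and adhesion molecules gave 2 of 11 higher and 2 lower, against 4.58% and 3.11% of all genes. The fibrinogen receptor of platelets pairs ITGA2B with ITGB3. ITGB3 read 182, 221 and 179 in PRL-3 arrays, against 338, 294 and 237 in control arrays, and fell with -0.57 ± 0.139 (adjusted p = 0.0462, limma), a call that was lost without control 1, control 2, PRL-3 4 or PRL-3 6, after the shift to 1 median and with an offset of 16. ITGA2B read 323, 427 and 355 in PRL-3 arrays, against 596, 511 and 409.8 in control arrays, where PRL-3 5 lay above control 3, and -0.45 ± 0.151 did not pass (adjusted p = 0.129, limma). The collagen and laminin receptor chains ITGA2 (0.70 ± 0.0995, adjusted p = 0.00548, limma) and ITGA6 (0.41 ± 0.0785, adjusted p = 0.0181, limma) rose. ITGA6 lost its call without control 1, control 2, PRL-3 4 or PRL-3 6 (adjusted p up to 0.0878). CD36, a receptor for thrombospondin and lipids, was the other one that fell (-1.53 ± 0.16, adjusted p = 0.00153, limma). Without control 3 the list gave 2 higher and 5 lower, and without control 1, control 2, PRL-3 4 or PRL-3 6 it gave 1 and 1. With array weights it gave 2 and 7.

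For platelet activation signalling, 5 of 24 rose and 2 fell, against 4.58% and 3.11% of all genes. FYN, a SRC family kinase (1.15), FCGR2A, the Fc receptor of platelets (0.89), VAV3, an exchange factor (0.80), and PRKCA, protein kinase C alpha (0.69), rose the most, with adjusted p in limma between 0.000394 and 0.0191. RAP1B, the small GTPase that opens platelet integrins, read 1061, 938 and 1141 in PRL-3 arrays, against 633, 697 and 795 in control arrays and rose by 0.57 ± 0.107 (adjusted p = 0.0181, limma). RAP1B had 2 probe sets, and these values are from the probe set with the higher mean. RASGRP2, its exchange factor in platelets, read 127, 127 and 119 in PRL-3 arrays, against 178, 169 and 152 in control arrays and fell, with -0.42 ± 0.0795 (adjusted p = 0.0181, limma). FERMT3, kindlin-3, which binds the integrin tail, read 166, 212 and 189 in PRL-3 arrays, against 321, 302 and 237 in control arrays and fell as well, with -0.59 ± 0.132 (adjusted p = 0.0329, limma). Leaving out control 1, control 2, PRL-3 4 or PRL-3 6 removed the calls of RAP1B, RASGRP2 and FERMT3, and the list then gave 2 (without PRL-3 4) to 4 higher and 0 lower; without control 3 it gave 5 and 4, and with array weights 5 and 7. FCGR2A also lost its call without control 2 or PRL-3 4 (adjusted p in limma up to 0.0862), and PRKCA without PRL-3 4 (0.0548).

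Genes of granule biogenesis and cargo rose in 7 of 23 and fell in 0, against 4.58% and 3.11% of all genes. By sign, 11 of the 23 differences were positive and 12 negative. The groups did not overlap in 7 with PRL-3 higher and in 5 with PRL-3 lower, where the shares among all genes were 12.1% and 12.2%. RAB27B, a small GTPase needed for dense granules in mouse platelets, read 164, 148 and 173 in PRL-3 arrays, against 71.1, 77.8 and 64 in control arrays (1.19 ± 0.0956, 2.28-fold, adjusted p = 0.000492, limma). LTBP1, which holds latent TGF-beta, read 239.99, 251 and 259 in PRL-3 arrays, against 125, 139 and 122 in control arrays (0.96 ± 0.0769, 1.95-fold, adjusted p = 0.00049, limma). SPARC, a collagen-binding glycoprotein (0.69, adjusted p = 0.00366, limma), and PDGFA, a platelet growth factor chain (0.59, adjusted p = 0.0203, limma), were next. The groups were separate in all of these. HPS3 (0.47), RAB27A (0.30) and STX11 (0.29), all of the machinery of lysosome-related granules and their release, were the other genes of this list that rose, named after their values were seen. RAB27A and STX11 lost the call with any single array left out, and the list gave 3 higher without control 2, 4 without PRL-3 6 and 5 without both control 1 and PRL-3 5. PDGFA lost its call without control 2 or PRL-3 6 (adjusted p in limma up to 0.0812) and HPS3 without control 2 (0.0538). With array weights the list gave 8 higher and 6 lower.

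In the further cytoskeleton list 0 of 16 passed in limma, with 1 at an unadjusted p under 0.05, against 3704 of all 18377 genes. In the unequal-variance test 0 of the 16 passed, with 0 unadjusted. Eicosanoid and nucleotide genes gave 1 of 16 higher, ALOX5, the leukotriene-forming lipoxygenase of myeloid cells (0.93 ± 0.121, adjusted p = 0.00366, limma), and 1 lower, P2RX1, the ATP-gated channel of platelets (-0.55 ± 0.129, adjusted p = 0.0404, limma). Among all genes 4.58% were called higher and 3.11% lower. The call of P2RX1 was lost with any array other than control 3 left out, and with array weights the list gave 5 higher and 1 lower.

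Markers of other blood cells were read beside these genes. Among all genes 4.58% were called higher and 3.11% lower, and the marker lists were not tested against these shares. Erythroid markers fell in 7 of 13 measured and rose in 0, led by HBB, adult beta globin (-2.15), and ALAS2, of haem synthesis (-1.17), and their summed intensity was 11451 to 11919 in PRL-3 and 16066 to 16446 in control arrays. Genes listed as mast cell and basophil markers rose in 3 of 9 measured and fell in 1, with PRG2 (1.52), KIT (1.01) and IL5RA (0.87) higher and CPA3 (-0.47) lower, at sums of 2141 to 2403 in PRL-3 and 1516 to 1696 in control arrays. The other 5 did not pass, HDC among them (0.37, adjusted p = 0.0948, limma). TPSAB1 and MS4A2 had no probe set of their own, so these calls do not name a cell type. T and NK cell markers, of interest because LAT, PRKCQ and CD226 are also used by lymphocytes, passed in 0 of 13 with 0 at an unadjusted p under 0.05 in limma and in the unequal-variance test, at sums of 796 to 809.8 in PRL-3 and 773 to 881 in control arrays. Of these 13, 7 lay below the 25th percentile of level over all genes, so whether they were expressed is unknown. With array weights 1 of the 13 was called higher. Endothelial markers, which matter for VWF, SELP, ESAM and MMRN1, rose in 1 of 12 (KDR, 0.59) and fell in 0, at sums of 2578 to 2908 in PRL-3 and 2432 to 2958 in control arrays. KDR lost its call without control 2, PRL-3 4 or PRL-3 6 (adjusted p in limma up to 0.0593). The other 11 held 9 with a negative difference, 3 of them with groups that did not overlap, and PLVAP, a protein of endothelial diaphragms named after its value was seen, was at -0.81 (adjusted p = 0.0523, limma). The list gave 1 higher and 1 lower after quantile normalization and 1 and 3 with array weights. Monocyte and granulocyte markers rose in 1 of 14 (VCAN, 0.69) and fell in 1 (CYBB, -0.55), at 1414 to 1599 in PRL-3 and 1439 to 1689.7 in control arrays. Here too 7 of the 14 lay below the 25th percentile of level. VCAN and CPA3 lost their calls without control 2 or PRL-3 4 (adjusted p in limma up to 0.0745 and 0.0662). Array weights gave 5 higher and 1 lower among the mast cell and basophil markers. An array intensity does not show whether a marker was expressed, and the part of these markers in the differences of platelet genes was not tested.

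**Figure D4:**
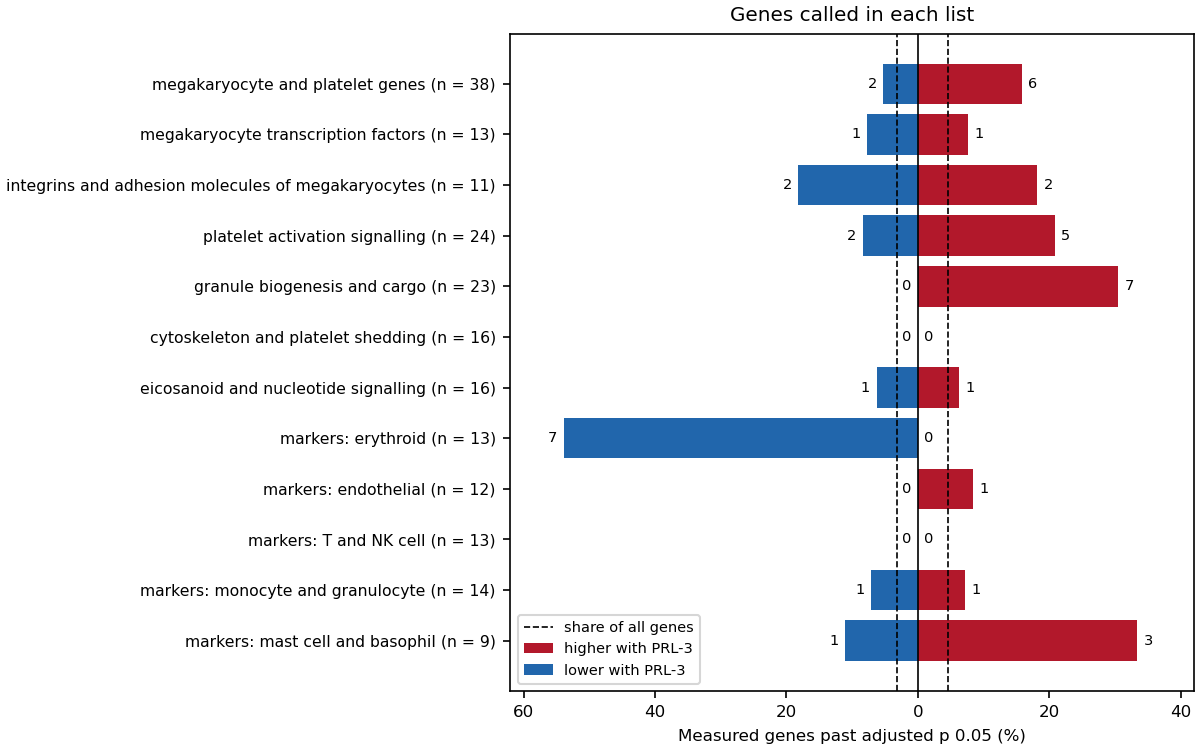
Share of measured genes called higher (red, to the right) or lower (blue, to the left) in PRL-3 cells at an adjusted p under 0.05 (limma), for the megakaryocyte and platelet genes, 6 related lists and 5 marker lists; numbers beside the bars are counts and dashed lines are the shares among all genes (4.58% higher, 3.11% lower). In this fit granule genes are called higher in 7 of 23 and lower in 0 (8 and 6 with array weights), and erythroid markers lower in 7 of 13 and higher in 0, while the platelet genes are called in both directions.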

How the data were processed

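Total RNA was measured on a whole-transcript array, from 100 ng per sample by the labels' protocols. The values deposited by the authors are intensities, 1 for each of 28869 probe sets on each of 6 arrays; how probes were summarised, background corrected and arrays normalized is not given in the sources used here. The values were positive and linear with close medians and were taken as already normalized, so differences are relative to the bulk of genes. Their log2 was used with no offset. Probe sets with exactly 1 symbol in the platform annotation (19310) were kept, symbols were compared with RefSeq by Entrez identifier (19279 matched, 0 changed), and the probe set with the highest mean stood for a gene, leaving 18377; each measured member had 1 probe set.

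PRL-3 and control were compared over all genes with limma 3.58.1 in R 4.3.3 (lmFit, eBayes), two-sided. Adjusted p-values are Benjamini-Hochberg over all genes, called under 0.05. Errors after differences are moderated SE, and intervals are 95%. Alternatives were quantile normalization, arrays set to equal medians, array weights, robust variances with an intensity trend, a filter on dim genes, the mean of probe sets, an offset of 16 and single arrays left out; an unequal-variance test and leaving out both control 1 and PRL-3 5 were added after seeing the data. The number of arrays limits the precision. Members and lists were chosen with earlier results of these data known. By rule, per-array values are given for members past the threshold, members whose call changed in an alternative, the 8 with the highest mean and the GP1B, PF4 and thrombin receptor families; from each further list up to 4 called genes with the largest differences are named, and GATA1, FLI1, RUNX1, NFE2, ITGA2B, ITGB3 and PTP4A3 whatever their result. RAP1B, RASGRP2, FERMT3 and the per-array values of SELP, TREML1, TUBB1 and ESAM were added after their values were seen. Figures were drawn with matplotlib 3.10.9 in Python 3.11.15.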

Additional observations from a re-analysis of the deposited data

How the results depend on the processing

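The 8 called members kept their sign in every alternative run that held them, and 8 members, none of them called, changed sign in at least 1. The count of members lower was 1 after a shift of the arrays to 1 median and 1 with an intensity trend and robust variances, against 2. After quantile normalization and with an intensity trend and robust variances 7 members were higher, against 6, CLEC1B being the added one. Array weights, which gave control 2 a weight of 4.70, called 11 members higher and 9 lower, and 2122 and 2303 of all genes. Among genes at or above the median level, where 18 members were tested, 3 were higher and the median difference of members was -0.078. Those 3 were F2RL2, RGS10 and LAT. F13A1, PLEK and ANGPT1 lay below that level and were not tested in this fit. The unequal-variance test, added after seeing the data, called 0 members higher and 0 lower, and 7 and 4 of all genes. With 1 array left out, 4 to 7 members were higher and 1 to 3 lower, the median difference of members was -0.0503 to 0.0398, while the calls over all genes numbered 388 to 792 higher and 178 to 747 lower, fewest without control 2. Array weights turned PF4 to 0.033, P2RY1 to -0.0096 and PTGS1 to -0.046. With 1 array left out PF4 ranged from -0.053 to 0.022, PF4V1 from -0.12 to 0.014, THBS1 from -0.145 to 0.0596, P2RY1 from -0.02002 to 0.049, P2RY12 from -0.0032 to 0.128, TBXA2R from -0.036 to 0.079, PTGS1 from -0.093 to 0.144 and ALOX12 from -0.121 to 0.067. The cause of these moves was not tested. No paired analysis was possible because the groups share no replicate number.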
